A study of Homo sapiens with 4 samples.

Results

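HMOX1, which encodes the haem-degrading enzyme haem oxygenase-1, was examined together with 9 other genes of the NRF2 pathway in TGF-β1-treated and untreated epithelial cells of colon cancer. The members were all probe sets of the array whose single annotated symbol is HMOX1, NQO1, GCLC, GCLM, TXNRD1, SRXN1, SLC7A11, NFE2L2, KEAP1 or BACH1. These 10 of 19775 named genes were read by 23 of 54613 probe sets. A probe set is a group of short probes that together read one transcript. The cells, a line called LSTGFBR2, carry the type II TGF-β receptor on a doxycycline-inducible construct made with the T-Rex system. The 2 untreated arrays came from these cells without TGF-β1 and the 2 TGF-β1 arrays from the same line given 5 ng/ml of the cytokine for 16 hours. The growth and treatment notes name doxycycline for inducing the receptor, but not the arrays that were given it, nor do the labels say whether the line is a single clone. Nothing in the labels says that replicates were separate cultures, so p-values here rest on the spread of these arrays alone, part of which may be technical.

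NRF2, the product of NFE2L2, is a transcription factor that protects cells from oxidants and reactive chemicals. KEAP1 holds it in the cytoplasm and passes it to the proteasome until oxidants modify KEAP1. Freed NRF2 then pairs with a small MAF protein and binds antioxidant response elements beside its target genes. BACH1 binds the same elements as a repressor and leaves them when haem is abundant, and HMOX1 is among the genes it restrains most tightly. HMOX1 is also known to answer to other stress pathways, while NQO1, GCLM, TXNRD1 and SRXN1 are commonly used as readouts of NRF2 itself.

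The core of the antioxidant response element can be seen in promoter sequence of members for which RefSeq gives a window (GRCh38.p14, 250 bases before to 50 bases after an annotated start). Of the 10 members 8 matched, with 13 windows, and HMOX1 and SLC7A11 did not. Windows were searched on both strands for the core TGACNNNGC, for the AP-1 site TGANTCA and for CAGACA, a sequence bound by SMAD proteins. The antioxidant core was found in 4 of 13 windows, belonging to GCLM, TXNRD1 and KEAP1, against 13.3% of all 35116 windows. The AP-1 site was found in 1, a BACH1 window, against 7.71% of all windows, and CAGACA in 0, against 16.9%. No pair of these matches overlapped in the member windows. A window of each of these 4 genes is shown, 5′ to 3′ on the strand of the gene, because GCLM, TXNRD1 and KEAP1 hold the letters through which NRF2 and BACH1 are known to read their targets and BACH1 holds the AP-1 site alone. Capitals mark the matches.
GCLM, chr1:93909381-93909680, minus strand: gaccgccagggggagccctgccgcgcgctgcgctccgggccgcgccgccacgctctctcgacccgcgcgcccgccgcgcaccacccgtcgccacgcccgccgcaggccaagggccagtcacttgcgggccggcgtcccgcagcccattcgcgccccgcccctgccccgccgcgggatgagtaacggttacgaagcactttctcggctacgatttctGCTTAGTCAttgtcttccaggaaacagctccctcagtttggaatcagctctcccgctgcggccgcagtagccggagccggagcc
TXNRD1, chr12:104286782-104287081, plus strand: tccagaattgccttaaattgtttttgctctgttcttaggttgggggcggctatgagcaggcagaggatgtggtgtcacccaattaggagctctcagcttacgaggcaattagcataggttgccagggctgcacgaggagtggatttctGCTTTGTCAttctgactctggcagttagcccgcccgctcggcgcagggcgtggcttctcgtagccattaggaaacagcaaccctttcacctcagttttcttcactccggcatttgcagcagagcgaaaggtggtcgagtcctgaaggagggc
KEAP1, chr19:10502722-10503021, minus strand: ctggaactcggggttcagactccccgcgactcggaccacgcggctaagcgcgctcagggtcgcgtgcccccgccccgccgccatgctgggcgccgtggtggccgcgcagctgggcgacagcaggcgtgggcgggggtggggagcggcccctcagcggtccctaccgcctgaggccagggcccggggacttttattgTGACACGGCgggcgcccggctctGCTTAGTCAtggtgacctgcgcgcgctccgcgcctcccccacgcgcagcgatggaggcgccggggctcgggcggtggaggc
BACH1, chr21:29298672-29298971, plus strand: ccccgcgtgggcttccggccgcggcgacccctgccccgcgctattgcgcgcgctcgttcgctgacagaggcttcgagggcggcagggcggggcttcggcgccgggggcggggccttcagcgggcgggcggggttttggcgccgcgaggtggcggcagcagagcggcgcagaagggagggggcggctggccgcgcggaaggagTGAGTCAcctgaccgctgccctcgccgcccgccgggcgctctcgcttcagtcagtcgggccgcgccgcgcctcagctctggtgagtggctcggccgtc
GCLM and KEAP1 hold the same 9 letters, GCTTAGTCA, which read TGACTAAGC on the opposite strand. They lie from -34 to -26 relative to the GCLM start and from -31 to -23 relative to this KEAP1 start. This KEAP1 window has a further match, TGACACGGC. The TXNRD1 window has GCTTTGTCA from -102 to -94, and its other window, not shown, has 2 matches. A match is a description of letters and does not show that a factor binds there.

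Expression was read as RMA values on the log2 scale, 1 value per probe set and array, with array medians between 6.57 and 6.61. RMA gives no detection call, and levels of different probe sets cannot be set against each other. The groups were compared with limma over all 54613 probe sets, and an adjusted p (Benjamini-Hochberg over all of them) under 0.05 made a call. On this rule 355 probe sets rose and 166 fell, 0.65% and 0.304%. TGFBR2 was read first, as the check of the construct. Its probe set 207334_s_at read 9.44 and 9.55 without TGF-β1 and 14.70 and 14.92 with it, while 208944_at read 10.47 and 10.81 against 10.58 and 10.76. The signal of 1 of the 2 TGFBR2 probe sets thus differed along with TGF-β1. Doxycycline, which the notes do not assign to arrays, may have differed too. The part of each in the results below cannot be told apart. Of 12 colon epithelial markers all were measured and 0 lay under the array medians in every array, against 5 of 10 fibroblast, 6 of 8 endothelial and 7 of 8 measured leukocyte markers.

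HMOX1 rose in the TGF-β1 arrays, and it was the only one of the 23 member probe sets that passed the test in the fit to all 4 arrays. Its single probe set (203665_at) read 7.77 and 7.50 without TGF-β1 and 9.37 and 9.11 with it. Both TGF-β1 arrays lay above both untreated arrays by far more than replicates differed within a group. HMOX1 was higher by 1.60 ± 0.149 on the log2 scale (SE, n = 2 arrays in each group, limma adjusted p = 0.0181), a 3.03-fold rise with a 95% interval of 2.35-fold to 3.91-fold. By brightest probe set, 65 of 19775 genes had a log2 fold change at or above that of HMOX1, itself included. Of the other 22 member probe sets 0 rose and 0 fell by limma, and at an unadjusted p under 0.05 there was 1, of BACH1. Over all probe sets 0.954% were called by limma (0.65% higher and 0.304% lower) and 13.2% had an unadjusted p under 0.05, so the 1 call of 23 is not read as a property of the set. With any 1 of the 4 arrays left out the HMOX1 log2 fold change stayed between 1.46 and 1.74, but limma then had 1 residual degree of freedom and the adjusted p ran from 0.0783 to 0.150.

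**Figure D1:**
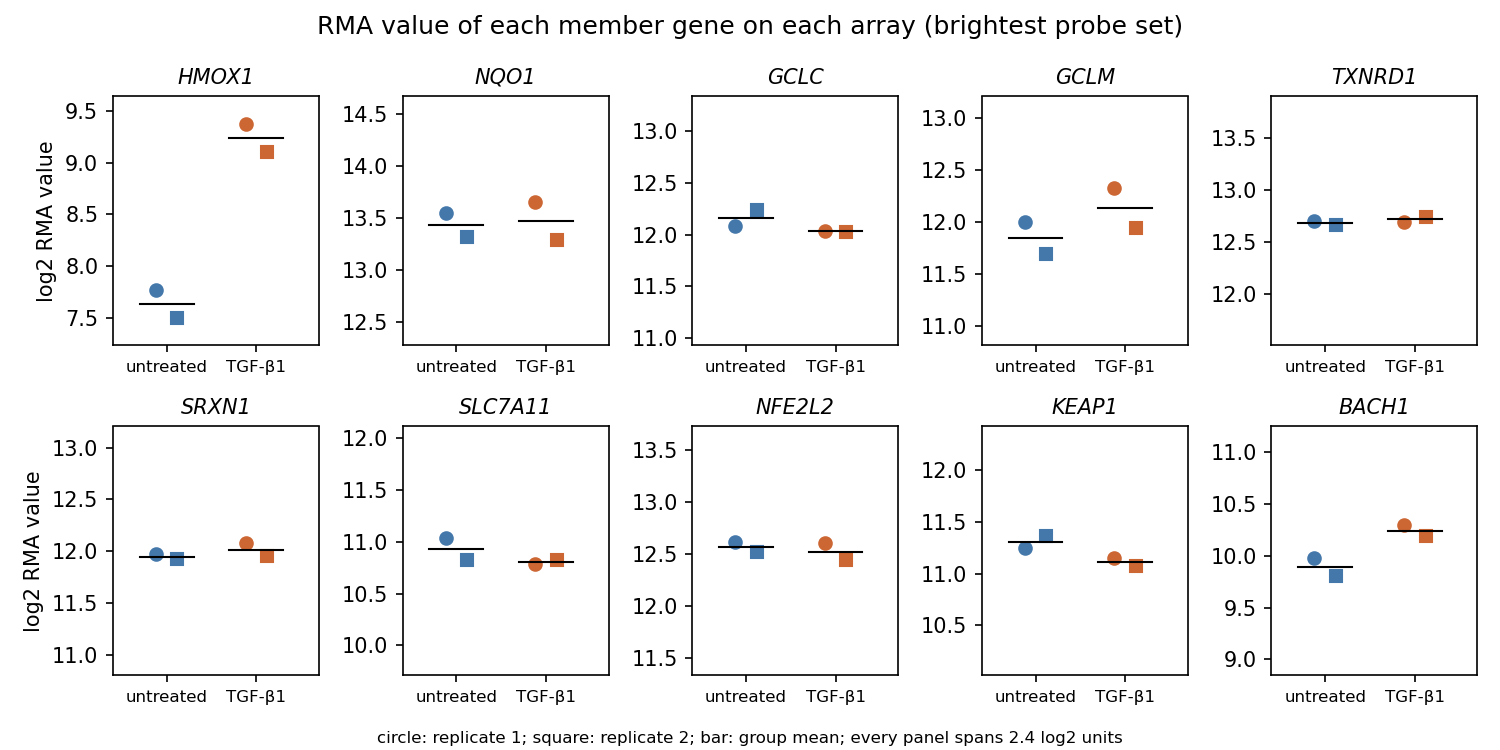
Log2 RMA value of each of the 10 member genes by its brightest probe set on the 2 untreated (blue) and 2 TGF-β1 (orange) arrays, with replicate 1 as circles, replicate 2 as squares and group means as bars, every panel spanning the same range. HMOX1 goes from 7.77 and 7.50 to 9.37 and 9.11, and in the other 9 panels the group means lie at most 0.35 apart.

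NQO1, a quinone reductase used as a standard marker of NRF2 activity, did not pass the test. Its brightest probe set (210519_s_at) read 13.55 and 13.32 without TGF-β1 and 13.66 and 13.29 with it, so the groups overlapped and replicates differed by more than the groups did. The log2 fold change was 0.04, with a 95% interval from -0.36 to 0.43 (limma adjusted p = 0.977). The other NQO1 probe sets, 201468_s_at and 201467_s_at, gave -0.08 and -0.04, and their groups overlapped too. An interval that reaches 1.35-fold at its upper end does not show that NQO1 stayed the same, but it lies wholly below the HMOX1 interval.

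GCLC and GCLM encode the catalytic and the modifier subunit of glutamate-cysteine ligase, the rate-limiting enzyme of glutathione synthesis. All 3 GCLC estimates were negative and all 3 GCLM estimates positive, but none of the 6 passed limma or reached an unadjusted p under 0.05. GCLC (202923_s_at) read 12.08 and 12.24 without TGF-β1 and 12.04 and 12.03 with it. Both TGF-β1 values lay below the untreated ones, with a log2 fold change of -0.12 and a 95% interval from -0.40 to 0.15. Its other 2 probe sets gave -0.09 and -0.13, the second of them (1555330_at) from a level under the array medians. GCLM (203925_at) read 12.00 and 11.69 without TGF-β1 and 12.33 and 11.94 with it. In each group replicate 1 was the higher, and the groups overlapped. The log2 fold change of 0.29 had a 95% interval from -0.14 to 0.72 (limma adjusted p = 0.602), and its upper end, 1.65-fold, was the highest among the brightest probe sets of the targets other than HMOX1. GCLM 234986_at read 9.75 and 9.70 against 9.99 and 9.82, groups that did not overlap, with a log2 fold change of 0.18. The third GCLM probe set, 236140_at, read 10.79 and 10.39 against 11.08 and 10.31, so that the TGF-β1 arrays held both its highest and its lowest value.

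SLC7A11 encodes the cystine transporter subunit xCT, which brings in the cysteine for glutathione and answers to both NRF2 and ATF4. Its brightest probe set (217678_at) read 11.03 and 10.83 without TGF-β1 and 10.79 and 10.82 with it. The groups lay apart by only 0.01 at their nearest values, with a log2 fold change of -0.13 and a 95% interval from -0.41 to 0.16. The other 2 probe sets gave 0.05 and -0.07 with overlapping groups. No SLC7A11 probe set had an adjusted p below 0.774 by limma.

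In the thioredoxin arm both members gave narrow intervals by their brightest probe sets, about as narrow as those of GCLC, NFE2L2 and KEAP1. TXNRD1, the cytosolic thioredoxin reductase, read 12.70 and 12.66 without TGF-β1 and 12.69 and 12.75 with it (201266_at). The log2 fold change was 0.04, and the 95% interval ran from 0.862-fold to 1.22-fold. A further TXNRD1 probe set, 1561080_at, read 2.80 to 3.13 on the 4 arrays, close to the lowest value in the table (2.48), so it carries no usable change. SRXN1, sulfiredoxin, which restores overoxidised peroxiredoxins, read 11.97 and 11.93 without TGF-β1 and 12.08 and 11.95 with it. Its groups overlapped, with a log2 fold change of 0.07 and a 95% interval from 0.872-fold to 1.26-fold. For both genes a rise as large as the 2.35-fold lower bound of HMOX1 lies outside the interval.

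**Figure D2:**
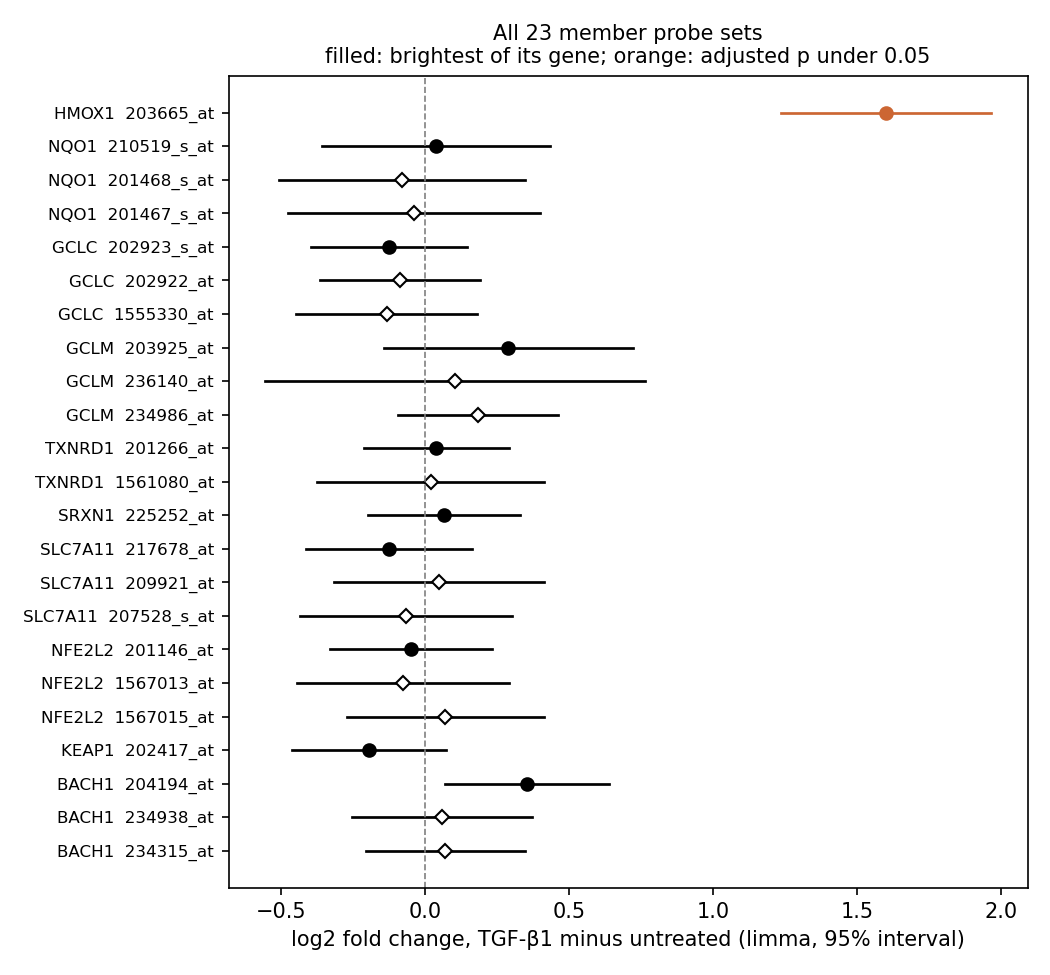
Log2 fold change (TGF-β1 minus untreated) of all 23 member probe sets by limma with 95% intervals, brightest probe set of each gene filled and called probe sets in orange. HMOX1 at 1.60 is the single call, and the other 22 point estimates lie between -0.19 and 0.35.

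The question whether HMOX1 moved with the other targets was put to each array. Values were taken relative to the mean of the 2 untreated arrays, each gene by its brightest probe set. HMOX1 stood at 1.73 and 1.47 with TGF-β1, and at 0.14 and -0.14 without it. The mean of NQO1, GCLC, GCLM, TXNRD1, SRXN1 and SLC7A11 stood at 0.10 and -0.04 with TGF-β1, and at 0.06 and -0.06 without it. The 6 targets together thus differed by 0.03 on the log2 scale between the groups, less than their replicates differed, and the distance of HMOX1 from them widened by 1.57 (2.97-fold). The SD of that distance was 0.112 in untreated and 0.092 in TGF-β1 arrays. The distance was wider in both TGF-β1 arrays than in either untreated array, and the two-sided exact permutation p was 0.333, the smallest that 2 arrays against 2 can give. With all probe sets of each gene averaged the widening was 1.59, and with any 1 array left out it was 1.49 to 1.65. Of the 15 probe sets of these 6 genes, 8 had a positive and 7 a negative log2 fold change, with a median of 0.02 against -0.01 over all probe sets.

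**Figure D3:**
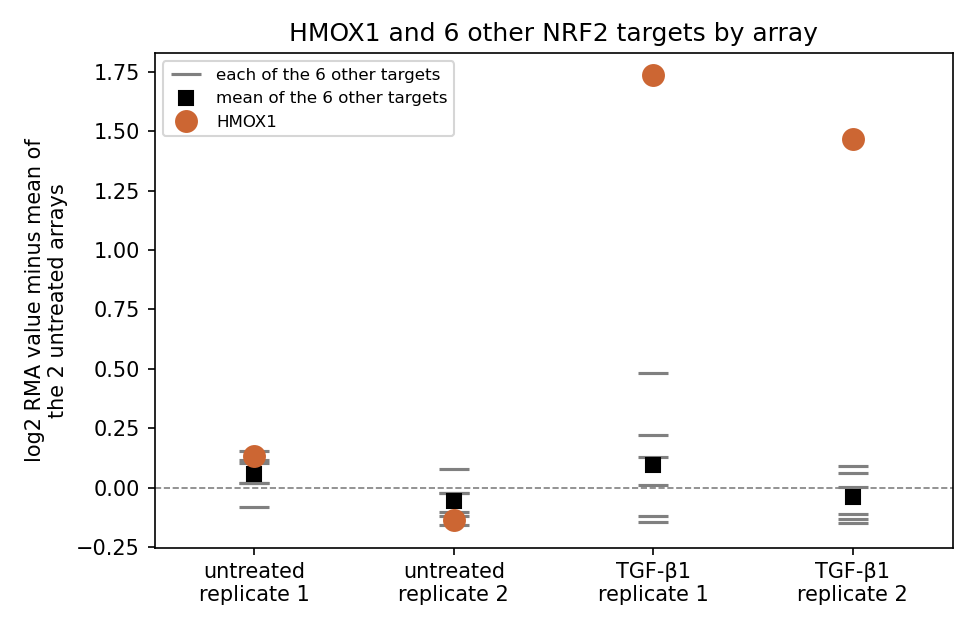
Log2 RMA value on each array minus the mean of the 2 untreated arrays for HMOX1 (orange circles), each of the 6 other targets (grey bars) and their mean (black squares). HMOX1 stands at 1.73 and 1.47 on the TGF-β1 arrays, where the mean of the others is 0.10 and -0.04.

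Among the regulators, none of the 7 probe sets passed limma. NFE2L2, the gene of NRF2 itself, read 12.62 and 12.52 without TGF-β1 and 12.60 and 12.44 with it (201146_at), with overlapping groups and a 95% interval from 0.795-fold to 1.18-fold. NRF2 is controlled mainly through its protein, which these arrays do not read. KEAP1, its inhibitor, read 11.25 and 11.37 without TGF-β1 and 11.15 and 11.07 with it. Both TGF-β1 values were the lower, at -0.19 on the log2 scale (SE 0.109, limma adjusted p = 0.553). BACH1, the repressor of HMOX1, read 9.97 and 9.80 without TGF-β1 and 10.29 and 10.19 with it by its brightest probe set (204194_at). The groups did not overlap, and the difference was 0.35 ± 0.117 on the log2 scale (SE, unadjusted p = 0.0230, limma adjusted p = 0.267). The other 2 BACH1 probe sets gave 0.06 and 0.07 with overlapping groups, from levels of 6.22 to 6.73 near or under the array medians. Over the whole set, groups did not overlap for 3 of 23 probe sets above and 3 below, against 19.2% and 21.6% of all probe sets.

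The wider pathway was followed through 12 lists of redox, haem and stress genes, each gene by its brightest probe set. Of 177 distinct genes 160 were measured by a probe set with a single symbol. On the same limma fit 1 of them rose and 0 fell, 0.625% against 1.43% of all genes (0.941% higher and 0.485% lower). At an unadjusted p under 0.05, 11 were higher and 10 lower, 13.1% in all against 15.4% of all genes (7.55% higher and 7.84% lower). Tested over 19775 genes alone in place of all probe sets, 2 rose and 2 fell, against 3.34% of all genes called. The median log2 fold change of the 160 genes was 0.00, as over all genes. With 2 arrays in each group, a count of 0 called does not show that no gene of a list changed. For the counts of each list below, the shares of all genes given here are the comparison.

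Among 21 measured drug and carbonyl metabolising enzymes and efflux pumps, ABCC3, a pump for conjugated bile acids and drugs, was the 1 that rose. It read 8.08 and 8.19 without TGF-β1 and 9.00 and 8.88 with it (208161_s_at), a 1.75-fold rise (limma adjusted p = 0.0437). The call was lost without any 1 array (adjusted p from 0.172 to 0.317), and with all ABCC3 probe sets averaged the log2 fold change was 0.49 (adjusted p = 0.0619). AKR1C3, an aldo-keto reductase, read 12.81 and 12.62 against 13.41 and 13.12, with a log2 fold change of 0.55 that did not pass (adjusted p = 0.168). AKR1C1 and AKR1C2, named after their values were seen, had log2 fold changes of 0.48 and 0.48 (adjusted p = 0.208 and 0.157). The AKR1C genes are near-identical copies, so probes may read more than one of them and the 3 values are not independent. At an unadjusted p under 0.05, 4 of the 21 genes were higher and 2 lower, against 7.55% and 7.84% of all genes. The 4 were ABCC3 and these 3 AKR1C genes. The list median was -0.05.

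Of 22 glutathione genes 0 rose and 0 fell by limma. At an unadjusted p under 0.05, 1 was higher and 2 lower, against 7.55% and 7.84% of all genes. GLRX, glutaredoxin, read 10.51 and 10.45 against 11.22 and 10.98, with a log2 fold change of 0.62 (adjusted p = 0.0951, and 0.0519 when tested over genes alone). Its other probe set, 209276_s_at, gave 0.67 (adjusted p = 0.0575), and GLRX passed with averaged probe sets (0.64, adjusted p = 0.0247). GGCT, a γ-glutamylcyclotransferase of glutathione breakdown, had -0.53 (adjusted p = 0.0895, and 0.0470 when tested over genes alone). The other lower gene was GPX2, named after its value was seen, at -0.41 (limma adjusted p = 0.170). In the thioredoxin and peroxiredoxin list, 0 of 14 were called or had an unadjusted p under 0.05, and the log2 fold changes ran from -0.15 to 0.10, the ends being SESN1, a sestrin, and TXNL1, named after its value was seen. PRDX4, a peroxiredoxin of the secretory pathway, had -0.11. Among 10 NADPH-supplying enzymes the count was likewise 0 by either measure, with MTHFD2 and NADK at -0.29 and -0.22. With any 1 array left out, MTHFD2 ran from -0.42 to -0.17 and NADK from -0.43 to -0.00053.

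Haem itself was followed on both sides of HMOX1. In the list of haem breakdown and iron handling 0 of 13 were called. At an unadjusted p under 0.05, 1 was lower, against 7.84% of all genes. This was FLVCR1, a haem exporter (log2 fold change -0.48, limma adjusted p = 0.228). BLVRA, the biliverdin reductase that works on the product of HMOX1, read 10.28 and 10.21 against 10.46 and 10.48, a log2 fold change of 0.23 (adjusted p = 0.437). The constitutive haem oxygenase HMOX2 and the ferritin light chain FTL, an NRF2 and BACH1 target, named after their values were seen, had -0.17 and 0.00. Among 10 haem synthesis genes 0 were called or had an unadjusted p under 0.05. ALAS1, the rate-limiting enzyme, read 10.38 and 10.36 against 10.69 and 10.47 (log2 fold change 0.21), and PPOX had 0.16.

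MAFF, a small MAF protein of the family with which NRF2 and BACH1 both pair on DNA, came closest to the threshold among their relatives. It read 9.70 and 9.44 without TGF-β1 and 10.74 and 10.45 with it (36711_at). The groups lay well apart, by 1.03 ± 0.152 on the log2 scale (SE, limma adjusted p = 0.0511). It passed when tested over genes alone (0.0251) and with an intensity trend (0.0398), and its other probe set, 205193_at, gave 0.64 (adjusted p = 0.154). TRIM16 read 10.13 and 10.50 against 11.06 and 11.42, a log2 fold change of 0.93 (adjusted p = 0.0897). In this list of 16 genes 0 were called. At an unadjusted p under 0.05, 3 were higher and 2 lower, against 7.55% and 7.84% of all genes. Beside MAFF and TRIM16 these were GSK3B (0.43), PGAM5 (-0.70) and PALB2 (-0.39), named after their values were seen. The small MAF gene MAFG, named after its values were seen, had 0.28 with overlapping groups.

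**Figure D4:**
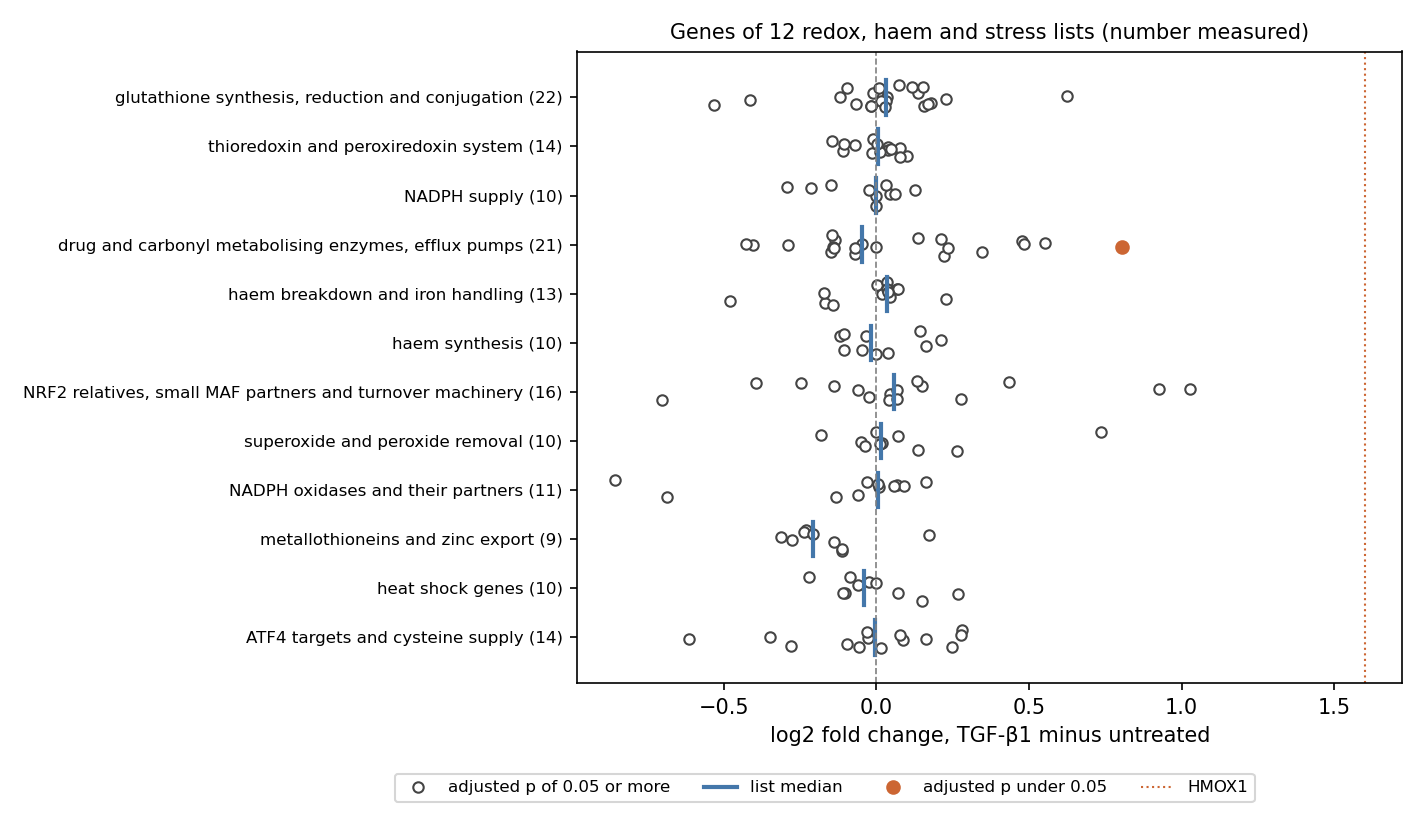
Log2 fold change (TGF-β1 minus untreated) of the genes of 12 lists by brightest probe set, with list medians as blue bars, called genes in orange and HMOX1 as a dotted line. ABCC3 is the single call, and all 160 measured genes lie below the 1.60 of HMOX1.

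Other pathways that HMOX1 is known to answer to were read the same way. Among 10 heat shock genes 0 were called or had an unadjusted p under 0.05 by brightest probe set, with HSPB1 at 0.27 and HSPA4 at -0.22. Another HSPA4 probe set, 208814_at, gave -0.63 without overlap (limma unadjusted p = 0.00136, adjusted p = 0.0745). The remaining HSPA4 probe sets, 211015_s_at and 211016_x_at, gave -0.12 and -0.22. The HSPB1 value rested on TGF-β1 replicate 2 (13.02, against 12.48 in replicate 1), and ran from 0.00071 to 0.54 with any 1 array left out. Among 14 ATF4 targets and cysteine supply genes 0 were called, with CTH (cystathionine γ-lyase) at -0.61 and the glutamine transporter gene SLC1A5 at -0.35. In that list 7 genes had a positive and 7 a negative log2 fold change. At an unadjusted p under 0.05, 1 was higher and 1 lower, against 7.55% and 7.84% of all genes. The higher was TRIB3, a pseudokinase induced by ATF4, at 0.28, named after its values were seen. None of 9 metallothionein and zinc export genes was called or had an unadjusted p under 0.05. Of these 8 had a negative log2 fold change, and 7 lay lower without overlap, against 23% of all genes, with a list median of -0.21. The 8 are 7 metallothioneins and MTF1, the transcription factor that switches them on in response to zinc (-0.11). Metallothioneins are near-identical copies whose probes may read more than one of them, so the 7 are not independent readings, and MT1F and MT1G had -0.31 and -0.28. Of 10 genes for superoxide and peroxide removal 0 were called. At an unadjusted p under 0.05, 2 were higher and 0 lower, against 7.55% and 7.84% of all genes. The 2 were SOD3 at 0.74 (adjusted p = 0.176) and CAT, catalase, at 0.26 (adjusted p = 0.375). Of 11 NADPH oxidase genes 0 were called by limma over all probe sets. At an unadjusted p under 0.05, 0 were higher and 2 lower, against 7.55% and 7.84% of all genes. NOX1, the colonic oxidase, read 9.85 and 9.20 against 8.96 and 8.37, a log2 fold change of -0.86 (adjusted p = 0.253, and -1.18 to -0.53 with any 1 array left out), and its organiser NOXO1 had -0.69 (adjusted p = 0.0764, and 0.0412 when tested over genes alone).

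By distance over the 4 arrays, the genes nearest to HMOX1 lay outside the NRF2 lists. Likeness was the root mean square distance between values centred on their own mean, among genes with a mean log2 value of at least 7. Values were not scaled, so the distance reflects the size of a change as well as its shape. All 160 list genes changed by less than HMOX1 upward, so their places say little about shape. MAFF, which read 9.70 and 9.44 against 10.74 and 10.45, lay at a distance of 0.286. The nearest were MYZAP (distance 0.039), BTG1 (0.061), PIWIL2 (0.099), TNFAIP8 (0.101) and ARHGEF18 (0.101). MYZAP read 6.91 and 6.61 without TGF-β1 and 8.57 and 8.30 with it. Its untreated mean of 6.76 lay below the minimum of 7, so it was ranked only through its TGF-β1 arrays. BTG1, an antiproliferative gene, read 10.96 and 10.80 against 12.50 and 12.31. These genes were picked for their likeness, so their changes are a description. Of 11341 genes ranked, BACH1 and GCLM were the nearest members at places 855 and 1131, and KEAP1 was the farthest at 8924.

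Markers of other cell types were set beside the HMOX1 rise. Of 26 measured fibroblast, endothelial and leukocyte markers 0 were called by limma. At an unadjusted p under 0.05 there were 2, both of the fibroblast list, against 15.4% of all genes. The summed log2 values of 8 measured leukocyte markers were 46.7 and 47.2 in untreated and 46.2 to 46.9 in TGF-β1 arrays, and those of 8 endothelial markers 45.5 to 46.4 and 45.9 to 46.4. The sum over 10 fibroblast markers was lower in the TGF-β1 arrays, 61.6 to 62.1 against 63.7 to 64.7. Of these markers 4 had a positive and 6 a negative log2 fold change, with a list median of -0.09. The 2 that changed most were COL3A1 and LUM. COL3A1 read 7.38 and 5.83 against 9.18 and 7.48 and LUM 3.06 and 3.17 against 3.52 and 3.91, log2 fold changes of -1.72 and -0.60. LUM lay near the lowest value in the table (2.48), and the groups overlapped by its other probe set, 229554_at. COL3A1 replicates differed widely within each group. Of its other probe sets, 201852_x_at and 211161_s_at gave -1.63 and -1.79, while 232458_at and 215077_at overlapped. The largest log2 fold changes of the other lists were -0.30 and 0.13 for ERG and EMCN and -0.15 and -0.13 for CD163 and ITGAM. Of the 12 colon epithelial markers 0 were called. At an unadjusted p under 0.05, 1 was higher and 2 lower, against 7.55% and 7.84% of all genes. Of the 12, 8 had a positive and 4 a negative log2 fold change, with a list median of 0.07. CDX2, an intestinal transcription factor, read 9.32 and 9.14 without TGF-β1 and 8.57 and 8.43 with it, a log2 fold change of -0.73 (adjusted p = 0.0640, and 0.0327 when tested over genes alone). KRT20, a keratin of differentiated colon cells, had -0.60, with overlapping groups. The part of these in the HMOX1 rise was not tested.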

How the data were processed

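Total RNA of 4 LSTGFBR2 samples was read on 1-colour HG-U133 Plus 2.0 arrays, and each sample's group came from its title. The deposited table holds log2 values, as their range (2.48 to 15.34) shows. The authors made them by RMA with quantile normalization, per the labels' design text, so a common shift of most genes is hidden. Its version was not given in the sources used here. Array controls (62 probe sets) were left out, and names came from the platform annotation (41097 probe sets with 1 symbol, 1801 with several, 11777 unnamed here), updated through Entrez IDs for 41043 of them. Probe sets with several symbols or none were fitted but not read as genes.

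All 4 arrays were fitted in R 4.3.3 with limma 3.58.1 (lmFit, eBayes, two-sided, no covariate, 5.97 degrees of freedom), checked on simulated data. The members and lists were chosen with earlier results of these data known. From each list the text names at most 4 called genes, those that changed most, or, where fewer than 2 were called, the 2 with the largest change. Genes marked as named after their values were seen, and MTF1, lie outside this rule. The alternatives tried were a filter on the mean log2 value (5 or 7), an intensity trend, median centring, 1 or averaged probe sets per gene, a replicate block and leaving out each array.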

Additional observations from a re-analysis of the deposited data

How the results depend on the processing

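The HMOX1 call held under each of the 7 alternatives that kept all 4 arrays, with a log2 fold change of 1.60 to 1.61 and a limma adjusted p of 0.00659 to 0.0458, the highest with the replicate block, and no other member was called in any of them. It was lost with any 1 array left out (log2 fold change 1.46 to 1.74), when 0 members and 0 list genes were called and, over all probe sets, 0 to 25 rose and 0 or 1 fell. The number of arrays limits the precision. In place of 355 higher and 166 lower probe sets, a minimum mean log2 of 7 gave 536 and 430 and the replicate block 84 and 4. Lower calls were 253 with an intensity trend, 291 over genes with 1 probe set each and 312 with averaged probe sets. Same-numbered arrays deviated together (correlation 0.224 over all probe sets and 0.378 over those with a mean log2 of at least 7), but the labels do not say that a number marks a shared batch, so the block was not the main fit. It also removed the ABCC3 call. In place of 1 list gene higher and 0 lower, 2 were higher with a minimum of 5 or median centring, 2 higher and 1 lower with a minimum of 7 or a trend, 2 and 2 over genes, 3 and 2 with averaged probe sets and 0 higher with the block. Averaged probe sets turned the sign of NQO1 (-0.028) and PPOX (-0.010). With 1 array left out, small uncalled log2 fold changes also changed sign. These ran from -0.15 to 0.22 for NQO1 210519_s_at, -0.27 to 0.11 for 201468_s_at and -0.22 to 0.14 for 201467_s_at, from -0.27 to 0.0013 for GCLC 1555330_at, -0.28 to 0.48 for GCLM 236140_at and -0.15 to 0.18 for TXNRD1 1561080_at. They ran from -0.12 to 0.21 for SLC7A11 209921_at, -0.24 to 0.10 for 207528_s_at, -0.13 to 0.033 for NFE2L2 201146_at, -0.23 to 0.074 for 1567013_at, -0.082 to 0.22 for 1567015_at, -0.043 to 0.16 for BACH1 234938_at and -0.016 to 0.15 for 234315_at. The causes of these changes were not tested.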

Other observations

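Several members differed between replicate numbers in the same direction in both groups. Replicate 1 was above replicate 2 in both groups for 12 of 23 member probe sets and below it in both for 3, against 25.2% and 30.2% of all probe sets. The 12 included 3 of 3 probe sets of NQO1, 3 of 3 of GCLM and the HMOX1 probe set. For NQO1 210519_s_at the values were 13.55 against 13.32 without TGF-β1 and 13.66 against 13.29 with it, larger than the distance between its group means. The direction of the HMOX1 difference between groups was the same within each replicate number, from 7.77 to 9.37 in replicate 1 and from 7.50 to 9.11 in replicate 2. This pattern was noticed after the values were seen and carries no test.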
